A study of Mus musculus with 7 samples.

Results

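The genes described here are 7 members of the mouse Ms4a family, Ms4a4a, Ms4a4b, Ms4a4c, Ms4a6b, Ms4a6c, Ms4a6d and Ms4a7, which are mostly associated with myeloid cells and T cells. They were taken by gene symbol from a table of 17920 genes and had been selected on their FPKM in these 7 libraries, by time and genotype. Their values are therefore given as a description without p-values. A count of them past a threshold supports nothing, and for the main processing it is printed beside the share of all genes. RNA came from whole spleen of C57BL/6 mice at 8 weeks of age, each injected intraperitoneally with lipopolysaccharide (LPS), a bacterial cell wall component, at 20 mg/kg. Spleens were collected after 90 min or 6 h from wild-type mice and from mice labelled GdX-/-, that is, deficient in GdX, the small ubiquitin-like protein made by the X-linked gene Ubl4a. The 7 libraries were 2 wild-type and 2 GdX-/- at 90 min, and 2 wild-type and 1 GdX-/- at 6 h. The design counts 4 wild-type and 3 GdX-/- mice, the protocol writes the genotype as GdX-/Y, and no conditional allele is named. Every animal had received LPS, so no value can be set against an uninjected spleen.

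MS4A proteins cross the membrane several times and sit at the cell surface or in internal membranes, where they associate with other receptors and alter their signalling. The best known member is CD20, the product of Ms4a1 on B cells, and another, Ms4a2, is the beta chain of the high-affinity IgE receptor of mast cells and basophils. Several mouse members arose by duplication and lie side by side, so that some differ little in sequence. MS4A4A is found on macrophages, where it associates with the beta-glucan receptor Dectin, and MS4A6D is a macrophage protein that works with the receptor VSIG4. MS4A4B and MS4A6B are found on T cells and associate with the costimulatory receptor GITR. MS4A7 marks some macrophage populations, and Ms4a4c and Ms4a6c are less studied.

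All 7 genes lie within 1 cluster on chromosome 19 (GRCm38, with positions from RefSeq and strands from GENCODE vM21). In order they are Ms4a7 (chr19:11321039-11336146, minus strand), Ms4a4a (chr19:11375488-11392915, plus), Ms4a4c (chr19:11404717-11427246, plus), Ms4a4b (chr19:11443558-11463549, plus), Ms4a6c (chr19:11469353-11487182, plus), Ms4a6b (chr19:11518559-11530403, plus) and Ms4a6d (chr19:11586606-11604804, minus). Coding sequences from GENCODE vM21 were compared because reads from near-identical stretches can be assigned to the wrong copy. Ms4a4b and Ms4a4c each had 678 coding bases and differed at 56 of them, an identity of 91.7%. The 90-base stretch with the most differences is printed to show where reads can tell the pair apart. It covers coding bases 145 to 234, counted from the start codon, and its 15 differences are in capitals.
Ms4a4b coding: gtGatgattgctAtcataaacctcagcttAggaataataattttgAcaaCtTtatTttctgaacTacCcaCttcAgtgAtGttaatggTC
Ms4a4c coding: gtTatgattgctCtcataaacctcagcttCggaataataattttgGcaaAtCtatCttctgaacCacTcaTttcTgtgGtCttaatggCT
The longest stretch shared by both genes without a mismatch was 127 bases (coding bases 321 to 447 of Ms4a4b). It is printed because a short read from it names neither gene.
Ms4a4b and Ms4a4c shared: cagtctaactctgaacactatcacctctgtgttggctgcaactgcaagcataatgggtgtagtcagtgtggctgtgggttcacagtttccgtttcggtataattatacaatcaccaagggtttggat
Ms4a6b and Ms4a6d were 80.0% identical over their coding sequence, and their longest shared stretch was 81 bases (coding bases 100 to 180 of Ms4a6b).
Ms4a6b and Ms4a6d shared: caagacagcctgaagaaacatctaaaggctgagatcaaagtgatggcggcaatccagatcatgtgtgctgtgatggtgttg
Of all 50-base windows of a coding sequence, 13.7% in Ms4a4c and 12.4% in Ms4a4b also occurred in another Ms4a gene. The share was 6.74% in Ms4a6b, 5.78% in Ms4a6d, 0.997% in Ms4a6c, and 0 in Ms4a4a and Ms4a7. The split of reads within the pairs Ms4a4b and Ms4a4c, and Ms4a6b and Ms4a6d, is therefore uncertain, and their summed levels are given below as well.

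Promoters of 6 of the 7 genes were present in the RefSeq table (GRCm38.p6), and Ms4a6d had no entry. Each was taken as the 250 bases before an annotated start. For Ms4a4c, Ms4a6c and the second start of Ms4a7, that start lies inside the gene span given above. The Ms4a4c promoter ends at 11407660, while the span of that gene begins at 11404717. The promoters of Ms4a4b and Ms4a4c are shown because these neighbours differed in their levels over time, as described below. They were 72.0% identical. Capitals mark their longest shared run, 20 bases that lie at -41 to -22 from the start in Ms4a4b and at -38 to -19 in Ms4a4c.
Ms4a4b promoter, chr19:11443308-11443557, plus strand: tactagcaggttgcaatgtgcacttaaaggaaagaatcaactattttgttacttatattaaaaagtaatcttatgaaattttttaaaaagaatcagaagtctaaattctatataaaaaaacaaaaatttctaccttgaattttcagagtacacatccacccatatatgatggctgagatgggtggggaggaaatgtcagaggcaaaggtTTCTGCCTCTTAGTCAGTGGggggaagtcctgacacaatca
Ms4a4c promoter, chr19:11407411-11407660, plus strand: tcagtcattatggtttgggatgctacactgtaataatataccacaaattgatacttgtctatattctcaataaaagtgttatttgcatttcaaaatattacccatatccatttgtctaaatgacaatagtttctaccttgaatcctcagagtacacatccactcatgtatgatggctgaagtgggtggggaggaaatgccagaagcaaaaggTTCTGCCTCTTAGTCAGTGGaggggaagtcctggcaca
Motifs were searched on both strands of the 6 genes' promoters and of all 32851 promoters of that length in the table. An AP-1 motif, TGANTCA, matched at -81 to -75 of the second annotated start of Ms4a7, and 6.75% of all promoters held it. The gamma-activated site TTCNNNGAA (7.02% of promoters) and the PU.1 motif GAGGAAG (10.6%) matched none of the 6 genes in this window, so no matches overlapped. A match is a stretch of letters and not a measured binding site.

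Levels are FPKM, which scales fragments by transcript length and by the depth of a library, and can be compared between genes because they are per length. Depth read from the steps of low FPKM values was 18500000 to 20500000 mapped fragments per library, or 20300000 to 22400000 if the effective transcript is taken as 100 bases shorter. Globin genes took up between 7.73% and 30.9% of each library's summed FPKM. The targeted gene Ubl4a was at 5.62 and 7.50 in wild type and 4.03 and 5.69 in GdX-/- at 90 min, and at 11.88 and 14.01 in wild type and 10.56 in GdX-/- at 6 h. The groups overlapped at 90 min, where the log2 difference was -0.37 (adjusted p = 0.661, limma), so this level does not tell the labelled genotypes apart. One GdX-/- library at 90 min, replicate 2, stood apart in neutrophil markers, with a summed FPKM of 4901 over 10 genes. The single GdX-/- library at 6 h reached 2661 and the other 5 libraries 814 to 1285. The number of mice in the design equals the number of libraries, and the 2 libraries of a group give the spread against which differences are judged.

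**Figure D1:**
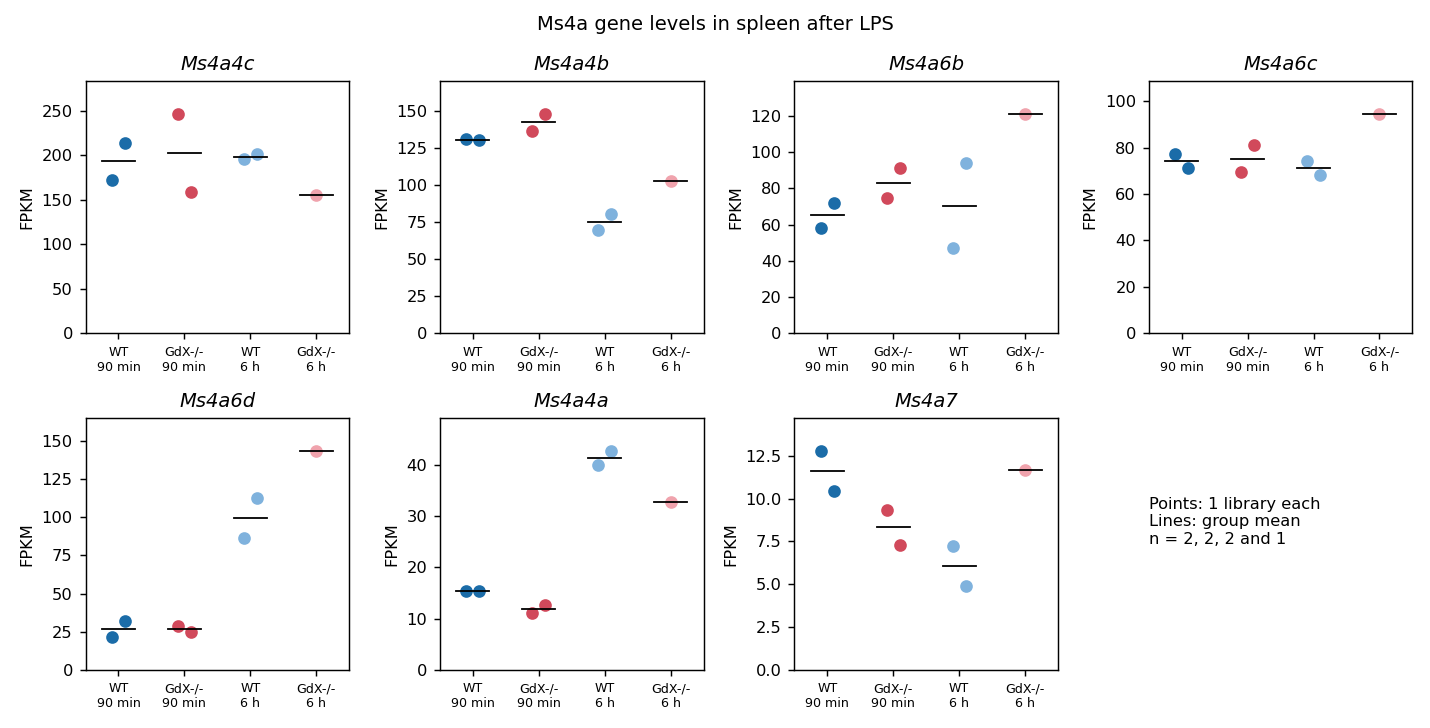
FPKM of the 7 Ms4a genes in each library, 1 panel per gene with its own axis from 0. Points are libraries (n = 2, 2, 2 and 1) and lines are group means. Ms4a6d and Ms4a4a stood higher in all 3 libraries at 6 h than in all 4 at 90 min, and Ms4a4b stood lower.

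By mean over the 7 libraries, Ms4a4c was the most abundant of the 7 transcripts at 192 FPKM. It was followed by Ms4a4b at 114, Ms4a6b at 79.8, Ms4a6c at 76.6, Ms4a6d at 64.3, Ms4a4a at 24.3 and Ms4a7 at 9.10. In wild type at 90 min the order was Ms4a4c, Ms4a4b, Ms4a6c, Ms4a6b, Ms4a6d, Ms4a4a and Ms4a7. The only neighbours whose libraries overlapped there were Ms4a6c (74.3 ± 4.48, SD, n = 2) and Ms4a6b (65.1 ± 10.1). In wild type at 6 h Ms4a6d came second, after Ms4a4c, at 99.5 ± 18.7. Ms4a4b, Ms4a6c and Ms4a6b followed at 75.1 ± 7.38, 71.2 ± 4.42 and 70.5 ± 33.0, and these 3 overlapped with one another. Ms4a6b also overlapped with Ms4a6d there. In GdX-/- at 90 min the order was that of the overall means, and Ms4a6b and Ms4a6c overlapped there. In the GdX-/- library at 6 h the order was Ms4a4c, Ms4a6d, Ms4a6b, Ms4a4b, Ms4a6c, Ms4a4a and Ms4a7. The summed FPKM of the 7 genes was 488 to 663. Ms4a6d made up 4.38% to 5.85% of that sum in the 4 libraries at 90 min and 16.6% to 21.7% in the 3 at 6 h.

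By time, Ms4a6d and Ms4a4a were higher at 6 h in both genotypes, Ms4a4b was lower in both, Ms4a7 was lower in wild type and higher in GdX-/-, and Ms4a4c, Ms4a6b and Ms4a6c overlapped in wild type. Ms4a6d, whose protein works with VSIG4 on macrophages, was at 21.38 and 31.93 FPKM in wild type at 90 min and 86.29 and 112.76 at 6 h. In GdX-/- libraries it was at 28.91 and 25.07 at 90 min and 143.84 at 6 h. All 3 libraries at 6 h lay above all 4 at 90 min, and the GdX-/- library at 6 h was the highest. Group means were 3.73-fold higher at 6 h in wild type and 5.33-fold higher in GdX-/-. On the log2(FPKM + 1) scale, which understates changes of low genes, these differences were 1.88 (moderated SE 0.28, n = 2 and 2) and 2.37 (n = 2 and 1, no error). Ms4a6d had the widest range of the 7 genes, 6.73-fold from the lowest to the highest library.

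Ms4a4a, the macrophage surface gene, was at 15.41 and 15.29 FPKM in wild type at 90 min and 40 and 42.81 at 6 h. Its GdX-/- levels were 11.06 and 12.71 at 90 min and 32.68 at 6 h. The times did not overlap within either genotype, and at each time the GdX-/- libraries lay below the wild-type ones. The mean was 2.70-fold higher at 6 h in wild type and 2.75-fold higher in GdX-/-, with log2 differences of 1.37 (SE 0.25) and 1.39 (no error). Ms4a4a shared no 50-base window of its coding sequence with another Ms4a gene, and transcript parts outside the coding sequence were not compared.

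Ms4a4b, the T-cell surface gene, was lower at 6 h. It was at 131.54 and 130.28 FPKM in wild type at 90 min and 69.90 and 80.33 at 6 h. GdX-/- libraries had 136.68 and 148.25 at 90 min and 103.08 at 6 h. Times did not overlap within either genotype, and GdX-/- lay above wild type at both times. The 90 min mean was 1.74 times the 6 h mean in wild type and 1.38 times in GdX-/-, with log2 differences of -0.80 (SE 0.23) and -0.46 (no error).

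Ms4a4c, the close copy of Ms4a4b, was not lower at 6 h in wild type, as far as the split of shared reads holds. It was at 171.82 and 214.23 FPKM in wild type at 90 min and 195.30 and 201.02 at 6 h, and at 246.39, 158.50 and 155.57 in the GdX-/- libraries, the last at 6 h. The wild-type times overlapped, with a log2 difference of 0.05 (SE 0.28). In GdX-/- the 6 h library was just below the lower of the pair at 90 min, which itself had a wide spread (202 ± 62.1, SD), and the log2 difference was -0.34 (no error), or -0.03 and -0.66 without replicate 1 or replicate 2 at 90 min. The ratio of Ms4a4c to Ms4a4b was 1.31 and 1.64 in wild type at 90 min and 2.79 and 2.50 at 6 h, and in GdX-/- it was 1.80 and 1.07 at 90 min and 1.51 at 6 h. The ratio was thus higher at 6 h in wild type, without overlap, while the GdX-/- library at 6 h lay between the pair at 90 min. Summed over both copies, the level was 303.36 and 344.51 in wild type at 90 min and 265.20 and 281.35 at 6 h, and 383.07, 306.75 and 258.65 in GdX-/-. The sum was lower at 6 h within each genotype, without overlap.

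Ms4a6b, the other GITR-associated gene, was at 57.93 and 72.21 FPKM in wild type at 90 min and 47.16 and 93.88 at 6 h. The GdX-/- libraries had 74.71 and 91.39 at 90 min and 121.28 at 6 h. The wild-type times overlapped, and the 2 libraries at 6 h enclosed the pair at 90 min. GdX-/- lay above wild type at both times, although the higher wild-type library at 6 h exceeded both GdX-/- libraries at 90 min. The log2 time difference was 0.04 (SE 0.34) in wild type and 0.55 (no error) in GdX-/-. The wild-type value rests on single libraries: it was 0.53 without replicate 1 at 6 h and -0.45 without replicate 2. Ms4a6b and Ms4a6d together came to 79.31 and 104.14 in wild type at 90 min and 133.45 and 206.64 at 6 h, and in GdX-/- to 103.62 and 116.46 and then 265.12. The sum was higher at 6 h in both genotypes, without overlap.

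Ms4a6c varied least, from 68.09 to 94.62 FPKM, or 1.39-fold. It was at 77.42 and 71.08 in wild type at 90 min, 74.34 and 68.09 in wild type at 6 h, 69.51 and 81.07 in GdX-/- at 90 min and 94.62 in GdX-/- at 6 h. All groups of 2 overlapped and the GdX-/- library at 6 h was above every other. The log2 time difference was -0.06 (SE 0.24) in wild type and 0.33 (no error) in GdX-/-.

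Ms4a7, a macrophage gene and the least abundant, was at 12.81 and 10.47 FPKM in wild type at 90 min and 7.25 and 4.88 at 6 h. In GdX-/- it was at 9.33 and 7.32 at 90 min and 11.67 at 6 h. Wild type was lower at the later time and GdX-/- was higher, both without overlap. The log2 time differences were -0.85 (SE 0.31) and 0.45 (no error). The GdX-/- value was 0.20 under quantile normalization and 0.29 without replicate 2 at 90 min. The difference between these was not tested, since the GdX-/- value rests on 1 library at 6 h.

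**Figure D2:**
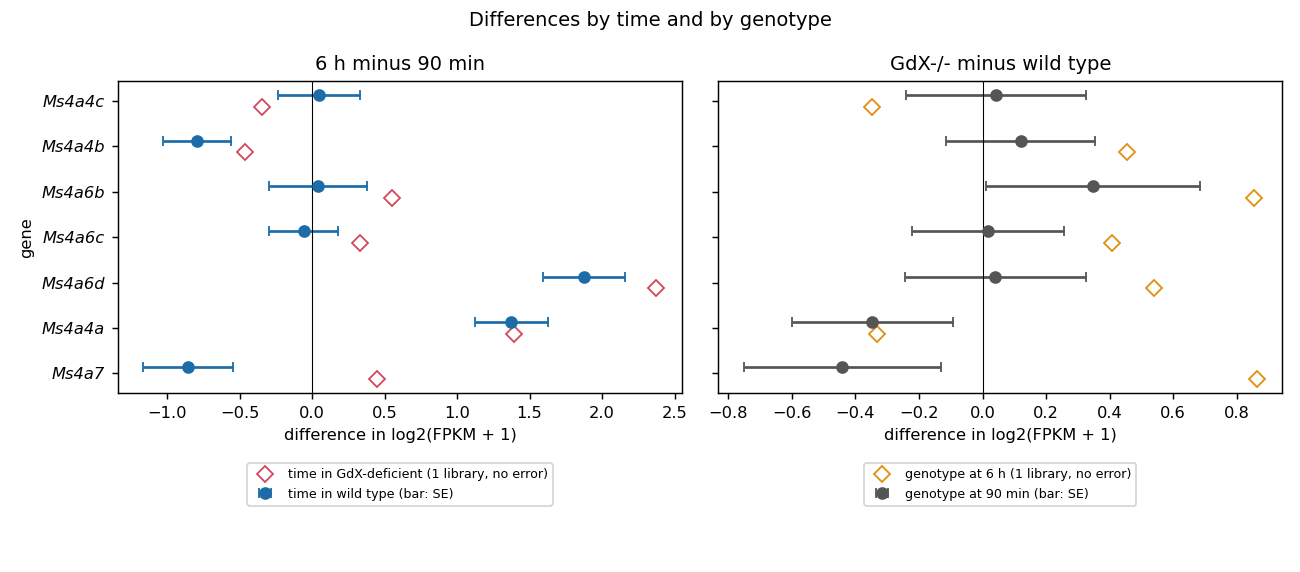
Log2 differences of the 7 Ms4a genes by time (left, 6 h minus 90 min) and by genotype (right, GdX-/- minus wild type), on the log2(FPKM + 1) scale. Filled points have the moderated SE as bars, and open diamonds rest on 1 library and have no error. Ms4a6d (1.88 and 2.37) and Ms4a4a (1.37 and 1.39) lie far to the right by time in both genotypes, while Ms4a7 and Ms4a4c change side in both panels and Ms4a6c by time.

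In the fit over all genes, 2 of the 7 genes were past the threshold for time in wild type (limma, Benjamini-Hochberg threshold of 0.05 over 11378 genes), Ms4a6d and Ms4a4a, both higher. The background was 10.7% of all genes called in either direction and 4.39% called higher. With genotype as a covariate they were the same 2, against a background of 5.44% in either direction and 2.79% higher. Past 2-fold in GdX-/-, without a test, they were again the 2, against 5.73% in either direction and 4.09% higher. The genes had been chosen with these values known, so the counts are no test of them. Ms4a4a was not called in wild type when either wild-type library at 90 min was left out, although its difference was 1.38 and 1.37. The lone library left was then assumed to vary like the other groups, and the SE was 0.45 against 0.25. With genotype as a covariate the log2 time difference was 2.08 (SE 0.23) for Ms4a6d and 1.38 (SE 0.20) for Ms4a4a. That of Ms4a4b was -0.66 (SE 0.19) and that of Ms4a7 -0.33 (SE 0.31), which was -0.85 without the single GdX-/- library at 6 h and -0.08 without wild-type replicate 2 at 6 h. The median log2 difference over the 7 genes in wild type was 0.04, beside 0.05 over all genes tested. Libraries of the 2 times did not overlap for 4 of the 7 in wild type, where 57.9% of all genes did not, and for all 7 in GdX-/-, where 72.6% did not. Ms4a6d and Ms4a4a were higher and Ms4a4b lower without overlap in both genotypes, 3 of 7, beside 33.6% of all genes with such a shared direction. Ms4a7 was apart in opposite directions, as were 9.14% of all genes.

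Genotype differences at 90 min were small. None of the 7 genes was called by limma, and the background was 0.0176% of genes called. At an unadjusted p under 0.05 there were 0 of the 7 and 862 of all 11378. Ms4a6b had the highest value, a log2 difference (GdX-/- minus wild type) of 0.35 (SE 0.34), and Ms4a4b followed with 0.12 (SE 0.23). Ms4a7 had the lowest, -0.44 (SE 0.31), and Ms4a4a was at -0.35 (SE 0.25). Libraries of these 4 genes did not overlap between genotypes, against 47.5% of all genes, but each difference was under 2 SE. These values moved with the scaling and kept their sign. After rescaling without globin genes Ms4a6b was at 0.56, Ms4a4b at 0.33, Ms4a7 at -0.25 and Ms4a4a at -0.15, and under quantile normalization they were at 0.48, 0.30, -0.59 and -0.45. Ms4a4c (0.04, SE 0.28), Ms4a6d (0.04, SE 0.28) and Ms4a6c (0.02, SE 0.24) overlapped, and were at 0.25, 0.24 and 0.22 after rescaling. These 3 changed sign with the libraries left out, Ms4a4c from -0.27 to 0.36 and Ms4a6d from -0.24 to 0.32. Without the GdX-/- library with high neutrophil markers, Ms4a4c was at 0.36, Ms4a6d at 0.14 and Ms4a6c at -0.09, and the 4 genes that did not overlap kept their sides, with Ms4a6b at 0.20, Ms4a4b at 0.06, Ms4a4a at -0.44 and Ms4a7 at -0.28. Ms4a6b was at 0.19 without wild-type replicate 1.

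At 6 h the single GdX-/- library lay outside both wild-type libraries for all 7 genes, as it did for 80.3% of all genes, so being outside says little. It was above them for Ms4a7 (log2 difference 0.86), Ms4a6b (0.86), Ms4a6d (0.54), Ms4a4b (0.45) and Ms4a6c (0.41). It was below them for Ms4a4c (-0.35) and Ms4a4a (-0.33). Of all genes, 54.9% were above and 25.3% below. None of the 7 was past 2-fold, against 22% of all genes, though Ms4a6b and Ms4a7 passed it after rescaling without globin genes. The median over the 7 genes was 0.45, beside 0.32 over all genes tested. That median of all genes was -0.02 under quantile normalization and 0.55 after rescaling without globin genes, so the values for single genes move with the scaling. Ms4a4c went to -0.05 and -0.07 under these 2 scalings, and Ms4a4a to -0.35 and -0.06, so that neither was clearly below wild type under both. In the values as deposited, Ms4a6c and Ms4a4b lay closest to that median, and Ms4a4c and Ms4a4a lay below it. The value for Ms4a6b depended on which wild-type library it was set against, 0.37 without replicate 1 and 1.34 without replicate 2, and that for Ms4a7 was 1.11 without replicate 1, 0.62 without replicate 2 and 0.44 under quantile normalization.

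Across both times, Ms4a6b and Ms4a4b were higher and Ms4a4a was lower in GdX-/- without overlap, 3 of 7, beside 32.1% of all genes. Ms4a7 was lower at 90 min and higher at 6 h, as opposite directions were seen in 7.79% of all genes. With time as a covariate none of the 7 was called by limma, with a background of 0.0439%, and 0 of the 7 were at an unadjusted p under 0.05, beside 3071 of all 11378 genes. Under quantile normalization that unadjusted count was 3 (Ms4a4a, Ms4a4b and Ms4a6b), beside 3133 of all 11378 genes. It was 2 after rescaling without globin genes (Ms4a4b and Ms4a6b), beside 3385 of all 11378. Without a filter on low values it was 1 (Ms4a4a), beside 3442 of 17920. The differences were 0.55 (SE 0.27) for Ms4a6b, 0.25 (SE 0.19) for Ms4a4b, 0.24 (SE 0.23) for Ms4a6d, 0.17 (SE 0.20) for Ms4a6c, 0.08 (SE 0.31) for Ms4a7, -0.11 (SE 0.23) for Ms4a4c and -0.34 (SE 0.20) for Ms4a4a. The sign for Ms4a4c turned to 0.13 under quantile normalization, and that for Ms4a7 to -0.44 without the single GdX-/- library at 6 h. Without that library the fit returned the values of 90 min given above, so that Ms4a6b was at 0.35, Ms4a4b at 0.12, Ms4a6d at 0.04 and Ms4a6c at 0.02. Without wild-type replicate 2 at 6 h, Ms4a6b was at 0.68.

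Cell markers moved with time as well. Of the listed genes present in the data, none was at 0 in every library. Only 23 of 25 interferon-stimulated genes and 7 of 8 fat and pancreas genes were present. The fat and pancreas genes were near the floor, with geometric means of 0.22 to 0.50 FPKM. Of all 11378 genes, 719 fell and 499 rose from 90 min to 6 h in wild type (limma, adjusted over all genes). Of 16 T-cell genes, 6 fell and 0 rose, with a median log2 difference of -0.95, beside 0.05 over all genes. Their summed FPKM was 734 to 795 at 90 min and 361 to 370 at 6 h in wild type, and 619 to 836 and 686 in GdX-/-. Of 16 monocyte and macrophage genes, 5 fell and 0 rose, with a median of -0.47. Their sum was 1739 to 1892 at 90 min and 998 to 1204 at 6 h in wild type, and 1642 to 1756 and 2108 in GdX-/-. Of the red pulp macrophage genes 6 of 9 fell, of the red cell genes 8 of 8, of the dendritic cell genes 5 of 7 tested and of the NK-cell genes 2 of 8. The summed FPKM of the dendritic cell list was 186 to 210 at 90 min and 232 to 353 at 6 h in wild type, and most of it came from Ccr7, a chemokine receptor, at 138.86 and 160.09 and then 212.61 and 331.02. The list's geometric mean, in which each gene weighs the same, was instead lower at 6 h, 3.96 and 4.53 against 8.86 and 9.22. No neutrophil gene of 10 was called (2 at an unadjusted p under 0.05), and of 23 interferon-stimulated genes tested 4 rose and 2 fell. A list of fat and pancreas genes summed to 2.64 to 8.51 and had 1 gene tested, Cela1, which fell. Of the 2 most abundant genes of each list, Cd2, Lyz2, Spic, Alas2, Slc4a1, Itgax and Ifit3 also fell. The others were not called: Lat (-0.93), Plac8 (0.20), Hmox1 (-0.64), Ccr7 (0.83), Gzma (0.72), Nkg7 (-0.36), Isg15 (0.17), S100a8 (0.19) and S100a9 (0.00), as log2 differences, with Prss2 not tested. By genotype at 90 min, limma called 0 of the 98 genes tested of these lists. At an unadjusted p under 0.05 there were 16, beside 862 of all 11378 genes. With time as a covariate limma called 0, and 36 were under that unadjusted p, beside 3071 of all 11378 genes. At 90 min the red cell genes had positive differences in 8 of 8 (7 at an unadjusted p under 0.05, median 0.90), the neutrophil genes in 9 of 10 (median 1.19) and the interferon-stimulated genes in 20 of 23 (median 0.42), beside a median of 0.07 over all genes. The NK-cell genes were positive in 8 of 8 (2 at an unadjusted p under 0.05, median 0.29). The neutrophil value rests on GdX-/- replicate 2, with a geometric mean of 111 FPKM, while replicate 1 at 33.1 lay between the wild-type libraries at 27.1 and 37.4. The geometric means of the interferon-stimulated list also overlapped, at 161 and 126 in GdX-/- and 92.9 and 128 in wild type. Those of the red cell and NK-cell lists did not. At 6 h the GdX-/- library was higher for most genes of the lists given here, beside a median of 0.32 over all genes. It was above the wild-type mean for 8 of 8 red cell genes (median 2.15), 8 of 10 neutrophil genes (1.58), 15 of 16 monocyte and macrophage genes (1.23), 7 of 8 NK-cell genes (1.02), 15 of 16 T-cell genes (0.99), 8 of 9 red pulp macrophage genes (0.97) and 6 of 7 dendritic cell genes (0.84). The interferon-stimulated list had 13 of 23 genes higher (median 0.18). In bulk RNA, fewer cells of a type and less RNA per cell cannot be told apart, and the part of these markers in the Ms4a levels was not tested.

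Set against the geometric mean of the T-cell list, Ms4a4b was at 4.00 and 4.00 in wild type at 90 min and 4.62 and 4.68 at 6 h, a ratio that was higher at the later time although the level was lower. In GdX-/- the ratio was 4.87 and 3.82 at 90 min and 3.05 at 6 h. Ms4a6b over the same list was at 1.76 and 2.22 in wild type at 90 min and 3.12 and 5.47 at 6 h, and at 2.66, 2.36 and 3.59 in GdX-/-. It was thus higher at 6 h in both genotypes. Ms4a6d over the monocyte and macrophage list was at 1.27 and 1.54 in wild type at 90 min and 7.23 and 6.73 at 6 h. In GdX-/- it was at 1.5 and 1.07, and then 4.45. Ms4a4a over that list was at 0.919 and 0.738 in wild type and 0.573 and 0.541 in GdX-/- at 90 min, and 3.35 and 2.55 in wild type and 1.01 in GdX-/- at 6 h. Ms4a6d and Ms4a4a were higher at 6 h relative to these markers, with the wild-type libraries above the GdX-/- one. Ms4a7 over that list was at 0.764 and 0.505 in wild type at 90 min and 0.607 and 0.291 at 6 h, and at 0.483 and 0.312 and then 0.361 in GdX-/-. Its times overlapped in both genotypes on this ratio, unlike its levels. Ms4a4c was at 10.2 and 10.3 in wild type at 90 min and 16.4 and 12.0 at 6 h, and at 12.8 and 6.75 and then 4.81 in GdX-/-, so it was higher in wild type and lower in GdX-/-. Ms4a6c overlapped in wild type, at 4.62 and 3.43 and then 6.23 and 4.06, and was lower in GdX-/-, at 3.60 and 3.45 and then 2.93.

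**Figure D3:**
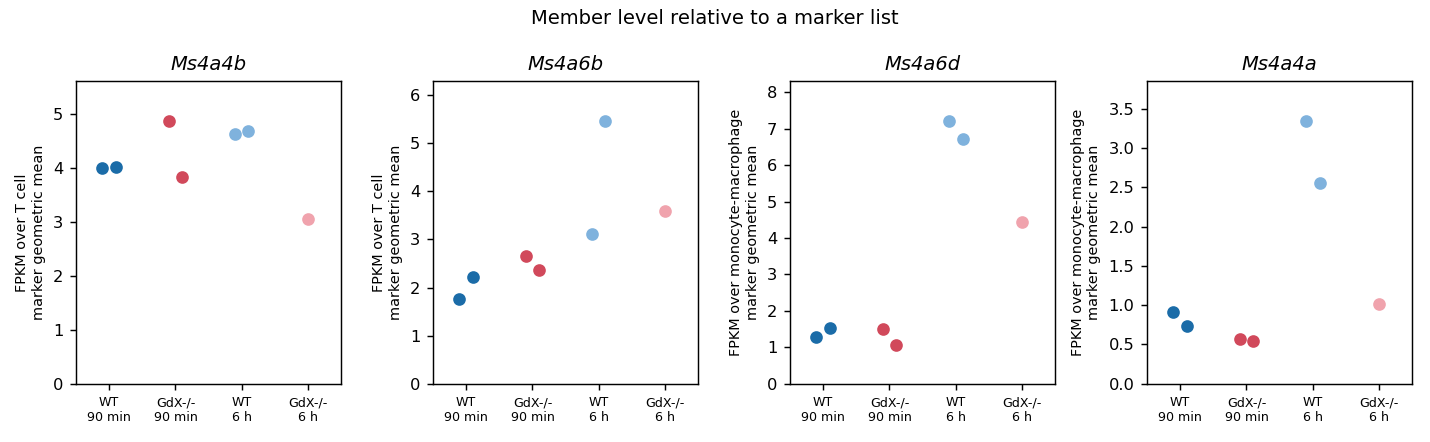
Ratio of FPKM to the geometric mean FPKM of a marker list in each library, for Ms4a4b and Ms4a6b over the T-cell list and Ms4a6d and Ms4a4a over the monocyte and macrophage list. Points are libraries and each axis starts at 0. Ms4a6d over its list was at most 1.54 at 90 min and at least 4.45 at 6 h, while Ms4a4b over the T-cell list stayed between 3.05 and 4.87.

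Other Ms4a genes of the table number 9, of which 3 reached the minimum mean of 1 FPKM and were tested. Ms4a1, which encodes CD20, was at 163.06 and 160.66 FPKM in wild type and 178.41 and 347.62 in GdX-/- at 90 min, and 55.89 and 106.62 in wild type and 269.74 in GdX-/- at 6 h. Wild type was lower at 6 h without overlap (log2 difference -1.06, SE 0.38, adjusted p = 0.107, limma), and GdX-/- was above wild type at each time (1.09, SE 0.34, adjusted p = 0.109, limma with time as a covariate). The genotype value was 0.62 (adjusted p = 0.631, limma) without the single GdX-/- library at 6 h. At 90 min it was also 0.62, and 0.14 without GdX-/- replicate 2. Ms4a4d, which is 83.3% identical to Ms4a4b and 85.6% to Ms4a4c in coding sequence, was at 12.12 and 12.77 in wild type and 8.19 and 7.35 in GdX-/- at 90 min, and 16.50 and 16.20 in wild type and 25.24 in GdX-/- at 6 h. It was higher at 6 h in both genotypes, with a difference of 0.85 (SE 0.27, adjusted p = 0.0843, limma with genotype as a covariate). That value combines 0.37 in wild type (adjusted p = 0.397, limma) and 1.58 from the single GdX-/- library at 6 h, without which it was 0.37. Ms4a8a was at 1.05 to 2.85 in all libraries. None of these 3 was called in the 4 tested comparisons, and at an unadjusted p under 0.05 there was 1 gene in each, Ms4a4d or Ms4a1. For time in wild type, Ms4a1 was at -1.52 without replicate 2 at 6 h and at -0.60 without replicate 1. The first passed the threshold (adjusted p = 0.0033, limma) and the second did not (adjusted p = 0.263, limma), but each leaves 1 wild-type library at 6 h, assumed to vary like the other groups. Ms4a1 was also called for genotype with time as a covariate without GdX-/- replicate 1 at 90 min (1.44, adjusted p = 0.0251, limma), which leaves 1 GdX-/- library at each time. The other 6 were lower in mean level: Ms4a3 at 0.894, Ms4a2 at 0.454, Ms4a14 at 0.25, Ms4a15 at 0.10, Ms4a18 at 0.011 and Ms4a10 at 0.010.

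**Figure D4:**
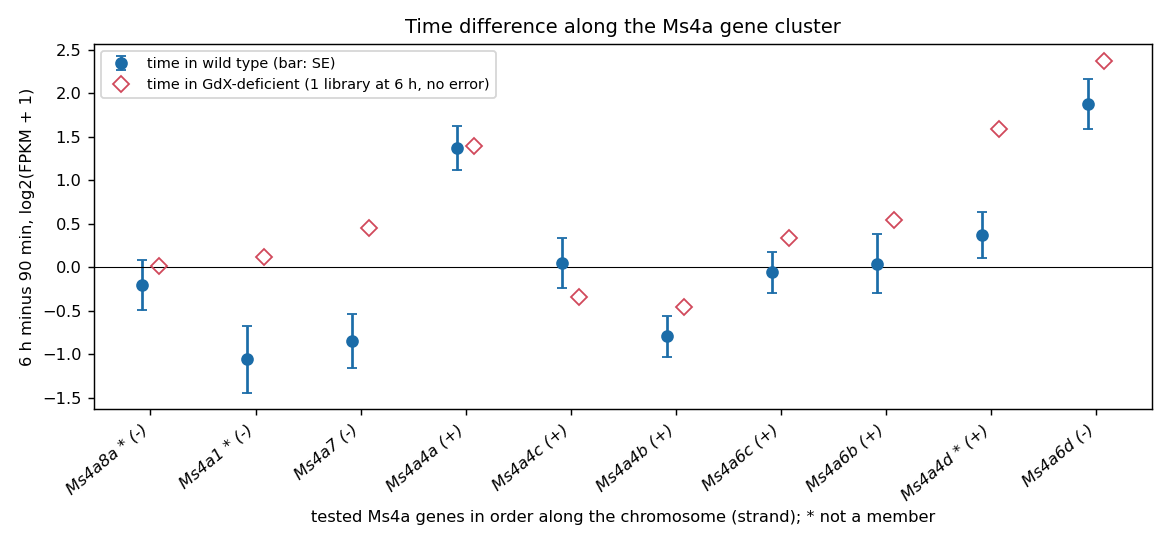
Time difference (6 h minus 90 min, log2(FPKM + 1)) of the 10 tested Ms4a genes in their order along the chromosome, not to scale, with strand in brackets and a star for genes outside the 7. Filled points have the moderated SE as bars and open diamonds rest on 1 GdX-/- library. Neighbours differ: Ms4a4a is at 1.37 in wild type beside Ms4a7 at -0.85 and Ms4a4c at 0.05.

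Along the chromosome, the time difference in wild type did not go one way. Ms4a6d and Ms4a4a, which had the highest values, are separated by Ms4a4c, Ms4a4b, Ms4a6c, Ms4a6b and Ms4a4d, and they lie on opposite strands. Their levels over the 7 libraries had a Pearson r of 0.92 on the log2(FPKM + 1) scale, and Ms4a4a and Ms4a4b had -0.94. Ms4a4b and its close copy Ms4a4c had -0.04. These libraries share the contrast of time, and the values are a description.

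The genes whose levels were most like each of the 7 over the 7 libraries were named by Pearson r, among genes with a mean of at least 5 FPKM. For Ms4a6d they were Anxa4 (0.990), Slco3a1 (0.981) and Tmem106a (0.981), and for Ms4a4a Snapc2 (0.996), Slc35b1 (0.994) and Ykt6 (0.994). For Ms4a4b they were Tlr2 (0.990), Ifit3b (0.989) and Ifi203 (0.989), of which Tlr2 encodes a receptor for bacterial lipoproteins. The other 4 had Tpst1 (0.919), Gypc (0.915) and Trim30d (0.909) for Ms4a4c, Nt5dc1 (0.992), Specc1l (0.991) and Bmp2k (0.991) for Ms4a6b, Rnf181 (0.983), Dpp7 (0.981) and G0s2 (0.977) for Ms4a6c, and Cst3 (0.976), S100a4 (0.961) and Atox1 (0.944) for Ms4a7. These are the highest values picked from a search over many genes with 7 libraries, and they are a description.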

How the data were processed

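RNA of 7 spleen libraries was selected with oligo dT or depleted of ribosomal RNA (the protocol names both) and sequenced on a BGISEQ-500, per the labels' protocols. The authors deposited FPKM values with 2 decimals, per the file headers. HISAT, HISAT2 2.0.4, Bowtie2, RSEM and GRCm38.p5 are named, without role or order, per the submitters' processing notes. Groups came from the sample titles.

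A pseudocount of 1 was added before taking log2, and genes whose FPKM averaged 1 or more (11378 genes) were fitted with limma 3.58.1 in R 4.3.3 (empirical Bayes with a trend). P-values were two-sided and Benjamini-Hochberg adjusted over all of them, with a threshold of 0.05. Genotype at 90 min and time in wild type came from a fit of 4 groups, and 2 additive models used all 7 libraries. The single GdX-/- library at 6 h was described without a test, a gene being past 2-fold when its log2 difference was at least 1 and the library lay outside both of the pair. The procedure was tested on simulated data with changes larger than any genotype difference of the 7 genes. That test therefore says nothing about differences as small as these.

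The 7 genes and the marker lists were chosen with earlier results of these data known. The naming rule takes these genes, the other Ms4a genes, Ubl4a, the 3 genes with the highest Pearson r for each of the 7 and the 2 most abundant genes of each marker list. The search by r skipped antigen receptor segments and gene models without a proper name. Alternatives were a pseudocount of 0.1, no filter or a minimum mean of 5, quantile normalization, rescaling without globin genes, a replicate block, fits of the 4 libraries alone and leaving out each library. FPKM is relative, so abundant genes such as globins move the others. One marker list is not reported here.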

Additional observations from a re-analysis of the deposited data

Results flagged for a closer look

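Ms4a7 and Ms4a4d went opposite ways between times or genotypes, with libraries that did not overlap. For Ms4a7 the difference of GdX-/- minus wild type was -0.44 at 90 min and 0.86 at 6 h, and the difference of 6 h minus 90 min was -0.85 in wild type and 0.45 in GdX-/- (0.20 under quantile normalization), all on the log2(FPKM + 1) scale. For Ms4a4d the genotype difference was -0.62 at 90 min and 0.60 at 6 h. Relative to the monocyte and macrophage markers, the times overlapped for Ms4a7 in both genotypes. These contrasts were not tested, since GdX-/- at 6 h is 1 library.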

How the results depend on the processing

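The 7 genes were chosen on these values, so their counts are a description. For time in wild type, Ms4a6d was past the threshold under every alternative run, and Ms4a4a under all but the fits without either wild-type library at 90 min, which left 1 called gene of the 7. The count was 2 under the others, except 3 with quantile normalization, which added Ms4a4b, and 4 with the replicate block described last. With time fitted beside genotype, both stayed called under all alternatives. Quantile normalization added Ms4a4b there too (log2 difference -0.74), with 883 of all 11378 genes called. Past 2-fold at 6 h by genotype there were 0 of the 7, but 1 with quantile normalization, 2 after rescaling without globin genes and 1 without either wild-type library at 6 h.

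Counts over all genes moved more. Genotype at 90 min gave 2 genes, 181 in a fit of its 4 libraries alone, and 2 to 183 with 1 library left out. Time in wild type gave 1218 (499 higher, 719 lower), 635 without a filter, 708 (191 higher, 517 lower) after rescaling without globin genes, and 450 to 1774 with 1 library left out. Genotype with time as a covariate gave 5, and 2 to 1674 with 1 library left out, the latter without GdX-/- replicate 1 at 90 min. Time with genotype as a covariate gave 619 (318 higher, 301 lower), 104 without a filter, 327 (112 higher, 215 lower) after rescaling without globin genes, 883 (305 higher, 578 lower) with quantile normalization, and 154 to 1204 with 1 library left out. Genotype at 6 h gave 2501 past 2-fold (1879 higher, 622 lower), with 951 higher and 881 lower under quantile normalization, 2857 higher and 352 lower after rescaling without globin genes, and 1887 to 3830 with 1 library left out. Time in GdX-/- gave 652 (465 higher, 187 lower), 1033 with a pseudocount of 0.1, 421 with a minimum mean of 5, 262 higher and 325 lower under quantile normalization, and 585 to 1336 with 1 library left out. The genotype difference of Ms4a4d with time as a covariate was -0.13, turned to 0.087 after rescaling without globin genes, and ran from -0.62 to 0.024 with 1 library left out. The cause was not tested.

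The replicate numbers of the titles were treated as names only. Deviations from group means of same-numbered libraries correlated at 0.77 between the wild-type groups, 0.08 between GdX-/- at 90 min and wild type at 6 h, and -0.12 between the genotypes at 90 min. With the replicate block, time in wild type gave 2345 genes and 4 of the 7, adding Ms4a4b and Ms4a7 as lower, and it called Ms4a1 as lower (adjusted p = 0.0401, limma). Genotype with time as a covariate gave 12 genes with it. At an unadjusted p under 0.05 there was 1 of the 7, Ms4a6b, beside 3898 of all 11378 genes. With 2 libraries a group at most, small differences were not detectable.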
